A study of Mus musculus with 9 samples.

Results

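Cholesterol is built in the cytosol and endoplasmic reticulum by a chain of enzymes, and 8 genes of that system, measured in mouse colon by bulk RNA sequencing, are described here: Hmgcs1, Mvd, Fdps, Fdft1, Sqle and Lss, which encode enzymes of the chain, and Srebf2 and Insig1, which encode proteins that adjust it to the sterol content of the membrane. They were taken by gene symbol from the deposited table of 45777 genes, all 8 were found in all 9 libraries, and all 8 passed the filter on low counts that left 18414 genes tested. The IM-HYA mice (3 libraries) were wild type, ate a diet containing HYA (an abbreviation left unexplained in the labels) and wore a hindlimb cast of plastic tubes and adhesive tape, put on under anesthesia, for 10 days. The IM mice (3 libraries) were wild type, ate normal diet and wore the same cast, and the CT mice (3 libraries) were wild type controls on normal diet. The labels give no age, sex or strain, and do not say whether each replicate is its own animal, so p-values measure the spread between libraries, which may be technical. Mice on the HYA diet without a cast were not analysed here, so the diet was read only under the cast.

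In textbook outline, acetyl-CoA units are joined and reduced to mevalonate, mevalonate is turned into isoprenoid units, and these are linked into farnesyl diphosphate, which also feeds protein prenylation. Squalene synthase commits farnesyl diphosphate to sterols, and later enzymes oxidise, cyclise and trim the product to cholesterol. When the membrane is poor in sterol, the escort protein SCAP carries the protein made from Srebf2 to the Golgi, where proteases free a fragment that binds sterol response elements before most genes of the chain. INSIG proteins hold SCAP back when sterols are plentiful. In the gut epithelium the same system serves cells that renew constantly.

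Library totals ran from 19638401 to 42917198 counts, and replicates differed beyond counting error in each pair (a chi-square of at least 43.1 per gene). In each library all 9 colon epithelium markers had reads. The summed level of these markers was 4887 CPM (counts relative to the scaled library size) in IM 3, against 8636 to 10389 CPM in the other 8 libraries. IM 3 had the highest sum of 4 more anterior Hox genes (195 CPM, against 4.85 to 52.8 CPM elsewhere). It also had the highest summed adipocyte markers (3266 CPM, against 89.4 to 636 CPM elsewhere) and T cell markers (112 CPM, against 3.99 to 11.7 CPM elsewhere). CT 2 held pancreas transcripts: 9 acinar marker genes took 20.1% of its counts. The libraries also differed in Hoxd13, a gene of the hindmost body axis that marks distal colon: it stood at 96.0, 3.65 and 105 CPM in IM-HYA libraries 1, 2 and 3, at 99.5, 0.591 and 0 CPM in IM libraries 1, 2 and 3, and at 105, 33.6 and 4.62 CPM in CT libraries 1, 2 and 3. In bulk tissue, fewer cells of a type and less RNA per cell cannot be told apart. Values below are given in the order of replicates 1, 2 and 3.

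Promoters are shown for Hmgcs1, Srebf2, Lss and Mvd. Hmgcs1 and Srebf2 are the pair of genes with a sterol response element core in the window searched. Lss had the only unadjusted p under 0.05 between groups among the 8 genes (IM-HYA against CT, 0.0440 in edgeR's quasi-likelihood test). It did not pass after adjustment (adjusted p = 0.854). Mvd passed the test on colon position described below, as did Fdft1, for which no promoter was matched. The sequences are from RefSeq (build GRCm38.p6) and run 5′ to 3′ on the gene's own strand, from 250 bases before to 50 bases after the start that the promoter table uses, which for Lss lies inside the annotated gene and not at its first base. Capitals mark letters that match, on either strand, the sterol response element core TCACNCCA (N is any base), the CCAAT box (CCAAT, or ATTGG where it lies on the other strand) or the GC box (GGGCGG, or CCGCCC on the other strand). The windows are chr13:119690101-119690400 on the plus strand for Hmgcs1, chr15:82147019-82147318 on the plus strand for Srebf2, chr10:76531355-76531654 on the plus strand for Lss and chr8:122443373-122443672 on the minus strand for Mvd.
Hmgcs1: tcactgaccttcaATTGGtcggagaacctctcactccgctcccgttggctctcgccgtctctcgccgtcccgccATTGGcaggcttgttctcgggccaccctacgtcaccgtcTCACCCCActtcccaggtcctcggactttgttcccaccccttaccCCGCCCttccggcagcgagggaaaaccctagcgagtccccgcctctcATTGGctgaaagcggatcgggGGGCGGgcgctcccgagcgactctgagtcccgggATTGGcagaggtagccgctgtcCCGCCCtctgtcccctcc
Srebf2: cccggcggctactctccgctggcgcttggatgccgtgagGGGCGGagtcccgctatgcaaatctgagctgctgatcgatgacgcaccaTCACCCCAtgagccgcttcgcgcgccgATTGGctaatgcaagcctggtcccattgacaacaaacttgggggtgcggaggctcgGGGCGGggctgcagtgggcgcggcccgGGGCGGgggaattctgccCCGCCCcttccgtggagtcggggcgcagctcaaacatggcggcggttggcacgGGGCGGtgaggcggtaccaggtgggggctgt
Lss: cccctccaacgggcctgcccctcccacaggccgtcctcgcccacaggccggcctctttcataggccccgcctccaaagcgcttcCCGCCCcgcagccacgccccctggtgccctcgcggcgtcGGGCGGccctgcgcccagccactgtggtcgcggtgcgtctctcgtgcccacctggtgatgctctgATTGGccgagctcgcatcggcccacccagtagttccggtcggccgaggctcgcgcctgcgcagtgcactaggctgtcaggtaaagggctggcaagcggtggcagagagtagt
Mvd: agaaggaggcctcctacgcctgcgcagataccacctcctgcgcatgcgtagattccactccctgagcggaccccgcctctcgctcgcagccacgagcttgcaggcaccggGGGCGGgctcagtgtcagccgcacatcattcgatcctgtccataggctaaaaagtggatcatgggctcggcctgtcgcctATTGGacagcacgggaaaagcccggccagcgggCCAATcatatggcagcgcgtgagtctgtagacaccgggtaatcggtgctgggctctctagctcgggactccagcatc

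Promoters of 5 of the 8 genes were matched in the RefSeq table: those above and that of Insig1. The sterol response element core occurred once before Hmgcs1, at position -137 from the start, and once before Srebf2, at position -162. It had 0 matches in the windows of Mvd, Lss and Insig1, and 4.36% of the 32851 mouse promoter windows of the same length held it. CCAAT boxes numbered 4 in the Hmgcs1 window, 2 in that of Mvd and 1 each in those of Lss, Srebf2 and Insig1, and 37.4% of all windows held at least 1. GC boxes numbered 3, 1, 2, 5 and 3 in the windows of Hmgcs1, Mvd, Lss, Srebf2 and Insig1, and 35.7% of all windows held at least 1. The Insig1 window also held 1 E-box (CACGTG), present in 7.15% of windows. No matches overlapped each other. The letters searched were chosen with these sequences in view, and a match describes the sequence only.

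Per transcript length, the chain was not expressed evenly. Hmgcs1, the cytosolic synthase that condenses acetoacetyl-CoA with acetyl-CoA, had the highest mean level, 107 ± 42.9 TPM (the authors' length-scaled transcript share; SD, n = 9 libraries). Fdps followed with 99.6 ± 49.7 TPM and Fdft1 with 78.2 ± 32.6 TPM. Mvd averaged 51.0 ± 17.2 TPM, Srebf2 43.5 ± 18.3 TPM, Insig1 42.8 ± 17.2 TPM and Sqle 42.3 ± 18.7 TPM. Lss, the cyclase that makes lanosterol, was the lowest at 3.96 ± 1.84 TPM, with a range of 0.910 to 6.29 TPM. Only 2 steps in this order held in all 9 libraries: Fdft1 above Mvd, and Sqle above Lss. The other neighbours changed places between libraries, Hmgcs1 being above Fdps in 5 of 9 and Srebf2 above Insig1 in 5 of 9. TPM values sum to a fixed total in each library, so the pancreas transcripts of CT 2 leave a smaller share for other genes. The part of these transcripts in the low TPM values of CT 2 was not tested. CT 2 had the lowest TPM of all 9 libraries for Hmgcs1, Mvd, Fdft1, Lss, Srebf2 and Insig1.

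The comparisons between groups use CPM scaled by edgeR, which allows for such a share. None of the 8 genes passed the test in any of them. At an adjusted p under 0.05 in edgeR's quasi-likelihood test, 0 of 8 were called for IM-HYA against IM (0% of all genes tested), 0 of 8 for IM-HYA against CT (0.00543% of all genes, which is 1 gene), 0 of 8 for IM against CT (0.00543%) and 0 of 8 for any difference among the 3 groups (0.00543%). At an unadjusted p under 0.05, the counts were 0 of 8 for IM-HYA against IM (7.66% of all genes), 1 of 8 for IM-HYA against CT (5.20%), 0 of 8 for IM against CT (7.94%) and 0 of 8 for any difference (6.69%). DESeq2 and limma also called 0 of 8 in each of the 3 comparisons. Over all genes, DESeq2 called 45 for IM-HYA against IM, 16 for IM-HYA against CT and 65 for IM against CT. Without IM 1, edgeR called 871 genes for IM-HYA against IM, none of them among the 8, of which Fdft1 had the lowest adjusted p, 0.0780. The 3 comparisons share libraries, so they are set side by side and not counted as separate evidence. The plot of CPM by library shows the values behind these counts.

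**Figure D1:**
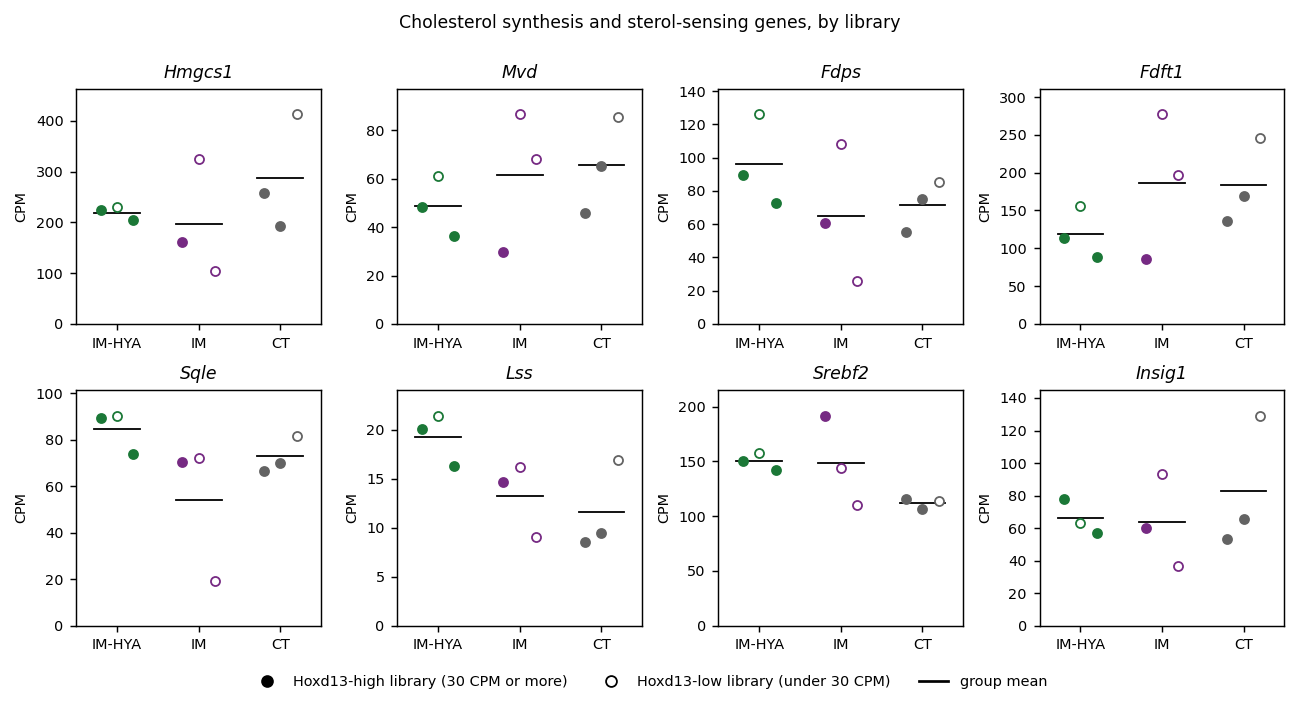
Level of each of the 8 genes (CPM, axis from 0) in each library, by group. Points are libraries, filled where Hoxd13 was 30 CPM or more and open where it was lower, and bars are group means of 3 libraries; Sqle and Lss in IM-HYA lie above all IM points, and Srebf2 in IM-HYA lies above all CT points.

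The first enzymes of the chain showed no group pattern. Hmgcs1 (chr13:119690351-119708260, plus strand of GRCm38.p6, as are the positions below) stood at 224, 229 and 205 CPM in IM-HYA libraries, at 161, 325 and 104 CPM in IM libraries and at 257, 193 and 414 CPM in CT libraries. The IM-HYA libraries were close to each other and lay inside the range of both other groups. The log2 fold change was 0.16 (SE 0.40, adjusted p = 0.878 in edgeR) for IM-HYA against IM, -0.39 (SE 0.40, adjusted p = 0.883) for IM-HYA against CT and -0.55 (SE 0.40, adjusted p = 0.704) for IM against CT. The last of these ran from -1.09 without IM 2 (adjusted p = 0.321) to -0.19 without CT 3. Mvd (chr8:122433596-122443422, minus strand), which decarboxylates mevalonate diphosphate to the first isoprenoid unit, stood at 48.5, 61.3 and 36.4 CPM in IM-HYA libraries, at 29.8, 86.9 and 68.0 CPM in IM libraries and at 45.8, 65.2 and 85.6 CPM in CT libraries. All groups overlapped, and the lowest and the highest of all 9 values were both in IM. Its log2 fold changes were -0.34 (SE 0.38, adjusted p = 0.713 in edgeR) for IM-HYA against IM, -0.43 (SE 0.38, adjusted p = 0.874) for IM-HYA against CT and -0.09 (SE 0.38, adjusted p = 0.957) for IM against CT.

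Fdps (chr3:89093588-89101967, minus strand), which links isoprenoid units into farnesyl diphosphate, stood at 89.8, 126 and 72.4 CPM in IM-HYA libraries, at 60.5, 108 and 25.9 CPM in IM libraries and at 55.0, 75.4 and 85.1 CPM in CT libraries. The groups overlapped; IM-HYA 2 was the highest and IM 3 the lowest, 4.88-fold apart, the widest span among the 8 genes. The log2 fold changes were 0.57 (SE 0.44, adjusted p = 0.633 in edgeR) for IM-HYA against IM, 0.42 (SE 0.43, adjusted p = 0.885) for IM-HYA against CT and -0.14 (SE 0.43, adjusted p = 0.934) for IM against CT. Without IM 3, the library with the lowest epithelial markers, the difference of IM-HYA and IM was 0.19 on the log2 scale, and without IM 2 it was 1.15 (edgeR adjusted p = 0.496).

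The next 3 enzymes form the sterol branch. Fdft1, squalene synthase, stood at 114, 156 and 87.8 CPM in IM-HYA libraries, at 85.6, 278 and 197 CPM in IM libraries and at 136, 169 and 246 CPM in CT libraries. The groups overlapped, with IM 1 just below the lowest IM-HYA library. The log2 fold changes were -0.65 (SE 0.41, adjusted p = 0.610 in edgeR) for IM-HYA against IM, -0.62 (SE 0.41, adjusted p = 0.854) for IM-HYA against CT and 0.02 (SE 0.40, adjusted p = 0.988) for IM against CT. With the distal colon score described below held constant, the difference of IM-HYA and IM was 0.00 on the log2 scale. The 3′ end of Fdft1 (chr14:63145150-63181687, minus strand) overlaps Ctsb on the other strand by 774 bases, and whether counting used strand is not given in the sources used here. Reads of that stretch may have gone to either gene.

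Sqle (chr15:59315092-59331193, plus strand), squalene epoxidase, which oxidises squalene and is a control point of the sterol branch, stood at 89.5, 90.5 and 73.9 CPM in IM-HYA libraries, at 70.5, 72.4 and 19.02 CPM in IM libraries and at 66.5, 70.2 and 81.9 CPM in CT libraries. All IM-HYA libraries lay above all IM libraries, and IM 3 stood far below the other 8. The log2 fold changes were 0.65 (SE 0.40, adjusted p = 0.610 in edgeR) for IM-HYA against IM, 0.22 (SE 0.40, adjusted p = 0.941) for IM-HYA against CT and -0.43 (SE 0.40, adjusted p = 0.759) for IM against CT. Without IM 3 the difference of IM-HYA and IM was 0.25 on the log2 scale.

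Lss (chr10:76531565-76557139, plus strand), lanosterol synthase, which folds oxidised squalene into the first sterol ring system, stood at 20.03, 21.5 and 16.3 CPM in IM-HYA libraries, at 14.6, 16.2 and 9.02 CPM in IM libraries and at 8.51, 9.50 and 16.9 CPM in CT libraries. The IM-HYA libraries lay narrowly above all IM libraries, and only CT 3 reached into the IM-HYA range among CT libraries. The log2 fold changes were 0.54 (SE 0.31, adjusted p = 0.606 in edgeR) for IM-HYA against IM, 0.73 (SE 0.31, unadjusted p = 0.0440, adjusted p = 0.854) for IM-HYA against CT and 0.19 (SE 0.31, adjusted p = 0.865) for IM against CT. Lss was the gene of the 8 under an unadjusted p of 0.05 for IM-HYA against CT. Among the 5 libraries with Hoxd13 at 30 CPM or more, Lss was 20.03 and 16.3 CPM in IM-HYA, 14.6 CPM in IM and 8.51 and 9.50 CPM in CT. Among the 4 with less Hoxd13, it was 21.5 CPM in IM-HYA, 16.2 and 9.02 CPM in IM and 16.9 CPM in CT. That IM-HYA was the highest in both sets follows from the order of libraries already given, and is no separate evidence. The sets were formed from the data, and a group difference within them was not tested. Its IM-HYA against CT difference ran from 0.55 without CT 1 to 1.10 without CT 3 on the log2 scale, and its IM-HYA against IM difference was 0.32 without IM 3.

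The sensing genes came next. Srebf2 (chr15:82147269-82205379, plus strand), which encodes the transcription factor that switches the chain on, stood at 151, 157 and 142 CPM in IM-HYA libraries, at 192, 144 and 110 CPM in IM libraries and at 116, 107 and 114 CPM in CT libraries. All IM-HYA libraries lay above all CT libraries, while IM 3 lay among the CT values and IM 1 and IM 2 above them. It was the steadiest of the 8 genes, with a coefficient of variation over 9 libraries of 20.4% and a highest level 1.80-fold the lowest. The log2 fold changes were 0.01 (SE 0.21, adjusted p = 0.982 in edgeR) for IM-HYA against IM, 0.42 (SE 0.21, unadjusted p = 0.0809, adjusted p = 0.854) for IM-HYA against CT and 0.40 (SE 0.21, unadjusted p = 0.0901, adjusted p = 0.635) for IM against CT. Among libraries with Hoxd13 at 30 CPM or more, Srebf2 was 151 and 142 CPM in IM-HYA, 192 CPM in IM and 116 and 107 CPM in CT. Among the rest it was 157 CPM in IM-HYA, 144 and 110 CPM in IM and 114 CPM in CT.

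Insig1 (chr5:28071412-28078662, plus strand), which retains SCAP in the endoplasmic reticulum and is itself a target of the Srebf2 product, stood at 77.6, 63.4 and 57.1 CPM in IM-HYA libraries, at 60.3, 93.4 and 36.9 CPM in IM libraries and at 53.2, 65.4 and 129 CPM in CT libraries. The groups overlapped fully, and CT 3 stood above the other 8 libraries. The log2 fold changes were 0.06 (SE 0.39, adjusted p = 0.958 in edgeR) for IM-HYA against IM, -0.32 (SE 0.39, adjusted p = 0.905) for IM-HYA against CT and -0.38 (SE 0.39, adjusted p = 0.780) for IM against CT.

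**Figure D2:**
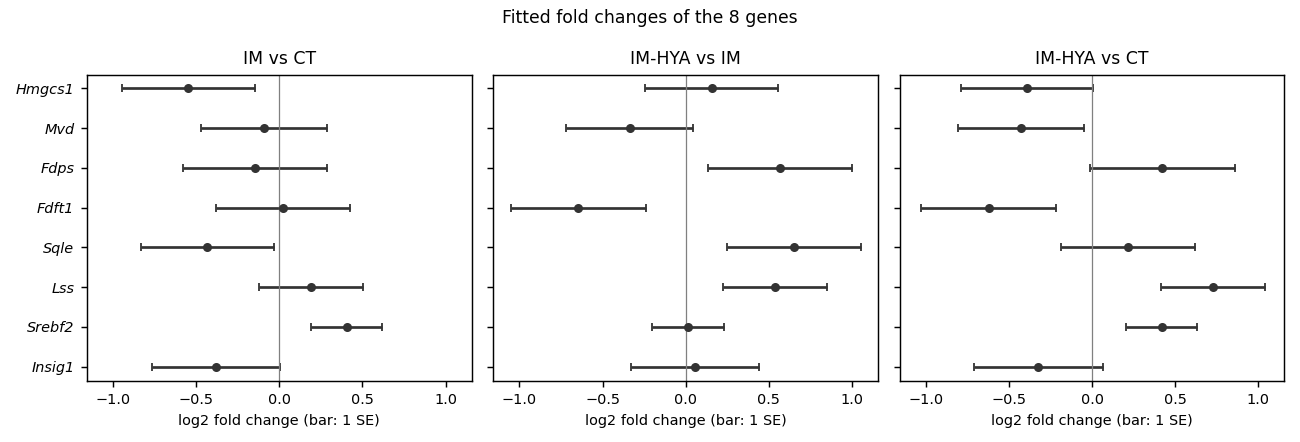
Fitted log2 fold change (x axis) of each of the 8 genes (y axis) in the 3 comparisons, with bars of 1 SE from edgeR on 3 libraries a group. No gene passed the adjusted threshold; the largest difference is that of Lss in IM-HYA against CT, 0.73.

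Groups that do not overlap were few. For IM-HYA against IM, 2 of 8 genes were higher with no overlap (Sqle and Lss), beside 5.39% of all genes tested, and 0 of 8 were lower, beside 4.30%. For IM-HYA against CT, 1 of 8 was higher (Srebf2), beside 10.8%, and 0 were lower, beside 11.3%. For IM against CT, 0 of 8 were higher, beside 4.43%, and 0 lower, beside 4.59%. Over the 8 genes, 6 of 8 fitted differences were above 0 for IM-HYA against IM, with a median log2 difference of 0.11, beside 49.0% above 0 and a median of -0.01 over all genes tested. For IM-HYA against CT, 4 of 8 were above 0 with a median of -0.05, beside a median of 0.01 over all genes. For IM against CT, 3 of 8 were above 0 with a median of -0.12, beside a median of 0.04 over all genes.

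Libraries of the same group often lay far apart. IM 3 was the lowest of the 9 libraries for 4 genes (Hmgcs1, Fdps, Sqle and Insig1), and its mean deviation from the 9-library mean over the 8 genes was -0.68 on the log2 scale. IM 2, of the same group, was above the 9-library mean for 8 of 8 genes, with a mean deviation of 0.45. CT 3 was above it for 7 of 8 (mean deviation 0.48) and the highest library for Hmgcs1 and Insig1. CT 1 and CT 2 deviated by -0.23 and -0.07. The IM-HYA libraries deviated by 0.14, 0.29 and -0.15, and thus spanned less than either other group. The part of the cell mix, position and depth in these deviations was not tested.

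The other enzymes of the chain also stayed short of the threshold between groups. Of 15 further synthesis genes, 0 passed the adjusted threshold in any comparison of groups, and 0 were under an unadjusted p of 0.05. For IM-HYA against IM, 12 of 15 were above 0 with a median of 0.12 on the log2 scale, beside 49.0% of all genes. For IM-HYA against CT, 10 of 15 were above 0 with a median of 0.17, beside 50.6% of all genes. With no overlap, 3 of 15 were higher in IM-HYA than in CT, beside 10.8% of all genes: Ggps1, which makes geranylgeranyl diphosphate, and Nsdhl and Dhcr7, which trim the sterol late in the chain. Nsdhl stood at 18.6, 15.7 and 18.1 CPM in IM-HYA libraries, at 18.8, 6.84 and 2.42 CPM in IM libraries and at 6.93, 8.88 and 6.67 CPM in CT libraries. Its IM-HYA level was above all CT libraries, and IM 1 was as high as IM-HYA; the IM-HYA against CT log2 difference was 1.22 (SE 0.56, adjusted p = 0.854 in edgeR). The heat map of the chain shows these libraries side by side.

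**Figure D3:**
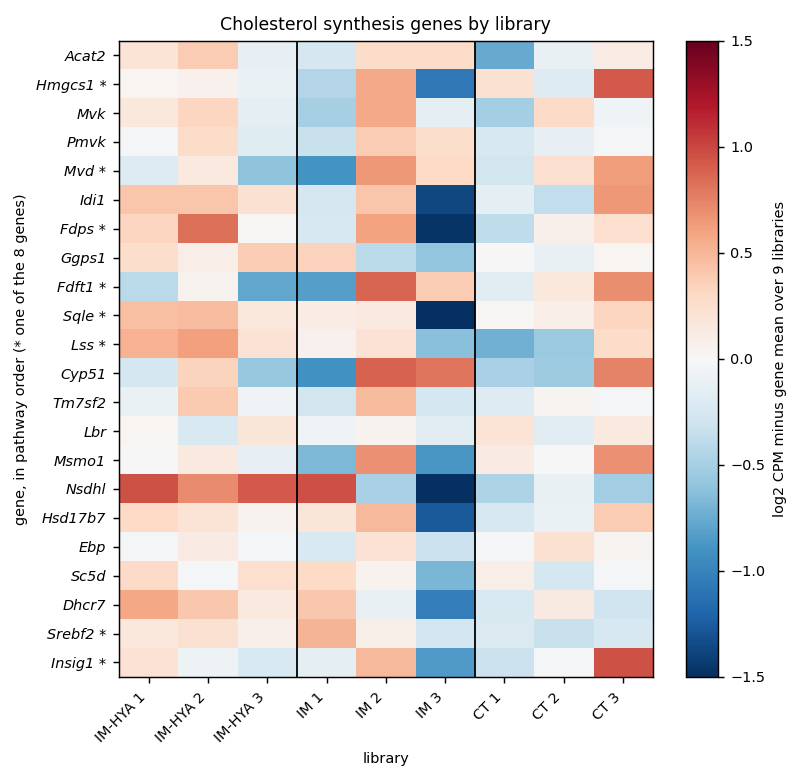
Deviation of synthesis genes (rows, in pathway order, with the 8 genes starred) from its mean over 9 libraries (columns, by group), on the log2 CPM scale; colours end at 1.5 in either direction. The IM 3 column is low for Hmgcs1, Fdps, Sqle, Nsdhl and others but high for Cyp51, and IM 2 and CT 3 are above the mean for most of the starred genes.

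Sensing and transport genes were also short of the threshold, with 0 of 7 and 0 of 12 called in each comparison. Scap, the escort protein, was lower in IM-HYA than in both other groups with no overlap: it stood at 44.6, 41.1 and 46.9 CPM in IM-HYA libraries, at 49.4, 54.4 and 54.5 CPM in IM libraries and at 48.4, 56.8 and 56.4 CPM in CT libraries. The differences were small, -0.26 (SE 0.16, adjusted p = 0.610 in edgeR) against IM and -0.29 (SE 0.16, adjusted p = 0.854) against CT. It was the only 1 of the 7 sensing genes without overlap, beside 4.30% of all genes lower against IM and 11.3% against CT. Mylip, a sterol-induced ubiquitin ligase of lipoprotein receptors, had the smallest p of the transport list. It stood at 23.7, 15.02 and 22.3 CPM in IM-HYA libraries, at 19.1, 6.44 and 11.6 CPM in IM libraries and at 12.5, 7.58 and 7.82 CPM in CT libraries. All IM-HYA libraries were above all CT libraries, and the log2 difference was 1.13 (SE 0.39, unadjusted p = 0.0160, adjusted p = 0.854 in edgeR). Of the 12 transport genes, 1 was higher in IM-HYA than in CT without overlap (Mylip), beside 10.8% of all genes. In the same comparison 1 was lower (Soat2), beside 11.3%. For IM against CT, 1 was lower without overlap (Npc2), beside 4.59%.

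By position along the colon, as read from Hox genes, some genes of the chain did pass a test. A distal colon score, the mean log2 CPM of 6 posterior Hox genes (Hoxa13, Hoxb13, Hoxd10, Hoxd11, Hoxd12 and Hoxd13), was 4.86, 1.58 and 4.97 in IM-HYA libraries, 4.92, 0.54 and -1.17 in IM libraries and 4.68, 3.36 and 1.93 in CT libraries. All 3 groups held high and low scores. With group held constant, the slope on this score was called at an adjusted p under 0.05 for 3003 genes, 16.3% of those tested (8.43% higher and 7.88% lower towards the distal end); leaving out IM 1 gave 5 calls, IM 3 1546, IM-HYA 1 1675 and IM-HYA 3 1621. Of the 8 genes, 2 were called lower and 0 higher. Mvd fell by 0.23 log2 units per unit of score (SE 0.05, adjusted p = 0.0227 in edgeR), and Fdft1 fell by 0.24 (SE 0.06, adjusted p = 0.0241). The slopes of the other 6 lay between -0.05 (Hmgcs1) and 0.10 (Sqle), with adjusted p from 0.218 to 0.870. Without IM 3, the Fdps slope was -0.20 and passed (adjusted p = 0.0167 in edgeR), and that of Hmgcs1 was -0.17 (adjusted p = 0.137). Without both CT 2 and IM 3, a setting chosen after seeing the data, the Hmgcs1 slope (-0.17, adjusted p = 0.0412 in edgeR) and the Fdps slope (-0.20, adjusted p = 0.00670) passed.

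Mvd was 29.8 to 65.2 CPM in the 5 libraries with Hoxd13 at 30 CPM or more, and 61.3 to 86.9 CPM in the other 4. Fdft1 was 85.6 to 169 CPM in the first set and 156 to 278 CPM in the second. In both genes the sets overlapped through CT 2 and IM-HYA 2 alone, and CT 2 is the library with the lowest Hoxd13 level of the first set. These sets were formed from the data, not by the study. Both calls were near the threshold: without IM 1 the adjusted p in edgeR was 0.527 for Mvd and 0.529 for Fdft1, with slopes of -0.17 for both, where the whole table gave 5 calls. Without CT 1 or without IM-HYA 3, both calls were also lost (adjusted p from 0.0505 to 0.0564), as was that of Fdft1 without CT 3 (adjusted p = 0.0518).

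**Figure D4:**
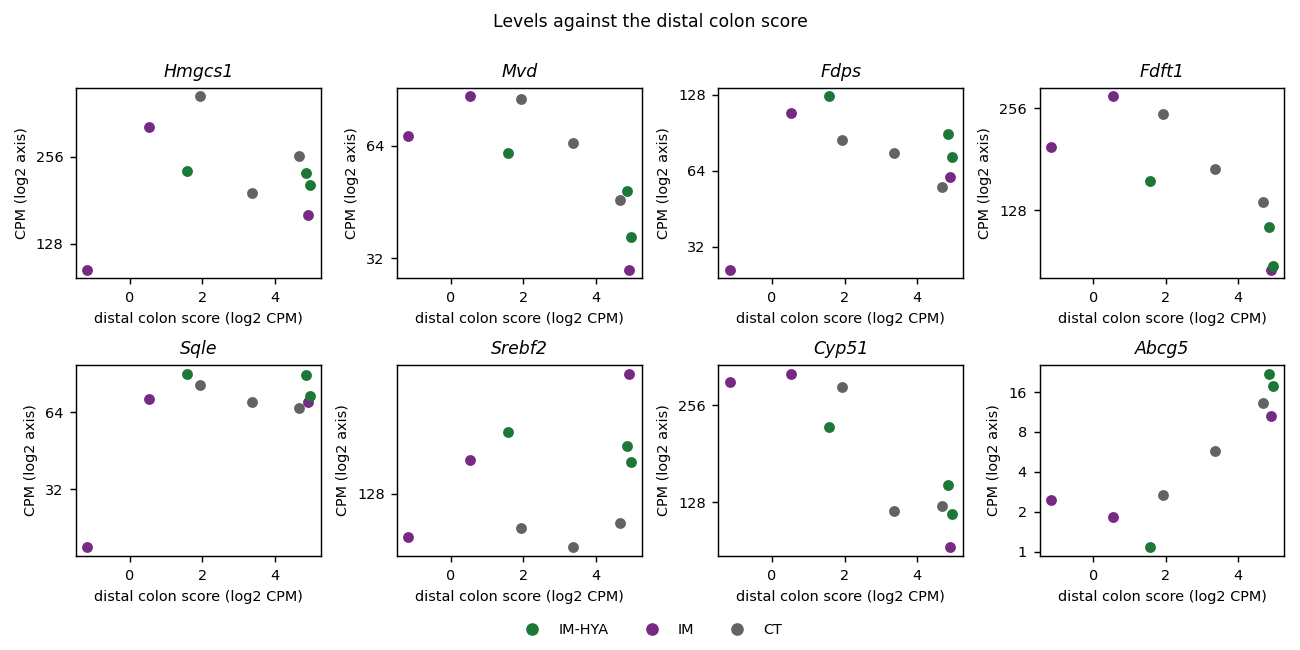
Level (CPM, log2 axis) of 6 of the 8 genes and of Cyp51 and Abcg5 against the distal colon score (mean log2 CPM of 6 Hox genes) in 9 libraries, coloured by group. Mvd, Fdft1 and Cyp51 are lower and Abcg5 is higher in libraries with a high score, while IM 3, at the far left, is the lowest point for Hmgcs1, Fdps and Sqle.

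Further synthesis genes also passed. Cyp51, the demethylase that acts on lanosterol, was called lower towards the distal end with a slope of -0.31 (SE 0.06, adjusted p = 0.0129 in edgeR). It stood at 145, 220 and 117 CPM in IM-HYA libraries, at 92.6, 321 and 303 CPM in IM libraries and at 124, 120 and 291 CPM in CT libraries. The 5 libraries with more Hoxd13 ran from 92.6 to 145 CPM and the other 4 from 220 to 321 CPM, without overlap, as 4.77% of all genes tested did in that direction. Nsdhl ran the other way, with a slope of 0.30 (SE 0.08, adjusted p = 0.0355). The half-transporters Abcg5 and Abcg8, which together export sterols from cells, rose distally with slopes of 0.60 (SE 0.14, adjusted p = 0.0304) and 0.55 (SE 0.12, adjusted p = 0.0228). Abcg5 was 5.74 to 22.0 CPM in the 5 libraries with more Hoxd13 and 1.08 to 2.68 CPM in the other 4, a separation that 5.01% of all genes showed in that direction. The 5 goblet cell markers summed to 5047 to 9234 CPM in the 5 libraries with more Hoxd13 and to 13065 to 20177 CPM in the other 4, and Muc2 alone stood at 791 to 1624 CPM and 5122 to 12847 CPM in the same sets. Their mean log2 CPM did not separate the sets: it was 9.77 to 10.61 in the 5 libraries and 9.69 to 11.35 in the other 4, lowest in IM 3. The part of goblet cells in these slopes was not tested.

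When 2 genes of a library are divided, its scaling drops out. The pairs plotted were picked after the values were seen, and in each the IM-HYA ratios lay apart from all CT ratios. The IM-HYA libraries were not closer together than CT in every pair. Fdft1 over Insig1, for example, was 1.47, 2.47 and 1.54 in IM-HYA libraries and 2.55, 2.59 and 1.91 in CT libraries. Fdft1 over Sqle was 1.275, 1.73 and 1.19 in IM-HYA libraries, 1.21, 3.84 and 10.4 in IM libraries and 2.04, 2.41 and 3.01 in CT libraries. Every IM-HYA ratio was below every CT ratio, and IM held both the value next to the lowest and the 2 highest of the 9. Mvd over Fdps was 0.540, 0.485 and 0.502 in IM-HYA libraries, 0.492, 0.801 and 2.63 in IM libraries and 0.833, 0.866 and 1.005 in CT libraries. Again IM-HYA lay wholly below CT, with IM 1 among the IM-HYA values. Hmgcs1 over Srebf2, a target beside its activator, was 1.49, 1.46 and 1.44 in IM-HYA libraries, 0.840, 2.27 and 0.944 in IM libraries and 2.22, 1.80 and 3.63 in CT libraries. Here too IM-HYA was below CT throughout.

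Lss over Insig1 was ordered across all 3 groups: 0.258, 0.338 and 0.285 in IM-HYA libraries, 0.243, 0.173 and 0.244 in IM libraries and 0.160, 0.145 and 0.131 in CT libraries. It was the only pair of the 28 without overlap in each of the 3 comparisons, and the share of all gene pairs that do so was not computed. Over all 28 pairs, 14 did not overlap between IM-HYA and CT, beside 22.4% of the pairs of 14857 genes. The counts were 5 of 28 for IM-HYA against IM, beside 9.65%, and 4 of 28 for IM against CT, beside 9.43%. The count for IM-HYA against IM became 17 when IM 1 was left out, 11 when IM 2 was left out and 8 when IM-HYA 1 was left out, and that for IM against CT was 8 without IM 1 and 9 without IM 2. The pairs share genes, and the ratios were chosen after the values were seen. With 3 libraries a group, an exact permutation test cannot go below 0.10, and none is given.

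**Figure D5:**
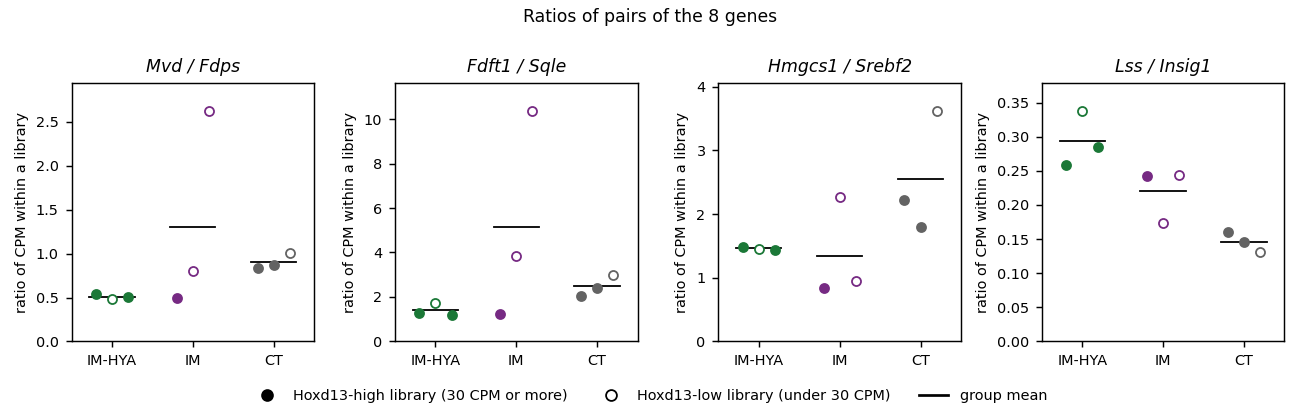
Ratio of the CPM of 2 genes within a library (axis from 0) for 4 pairs, by group; points are libraries, filled where Hoxd13 was 30 CPM or more and open where it was lower, and bars are group means of 3 libraries. The IM-HYA points lie apart from all CT points in each panel, and the pairs were picked after the values were seen.

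Over the 9 libraries, the genes whose log2 CPM ran closest to the mean of the 8 were Utp20 (Pearson r 0.976), Cutal (0.946), Mkx (0.934), Pitpnm3 (0.921), St3gal4 (0.913), Slc35a1 (0.910), Idi1 (0.902), Msmo1 (0.899), Mgam (0.899) and Hoxa9 (0.897), out of 13553 genes with a mean of at least 1 CPM. Idi1, which isomerises the isoprenoid unit, and Msmo1, a sterol methyl oxidase, are themselves enzymes of the chain. Idi1 stood at 79.5, 79.1 and 69.6 CPM in IM-HYA libraries, at 49.99, 79.2 and 23.1 CPM in IM libraries and at 54.0, 46.0 and 93.7 CPM in CT libraries, again lowest in IM 3 and highest in CT 3. These values are a description: the 9 libraries share the cell mix and position differences given above.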

How the data were processed

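Colon RNA of 9 mouse libraries in 3 groups of 3 was sequenced. The submitters' processing notes name StringTie 2.1.3b, HISAT2 2.1.0, Trimmomatic, bcl2fastq 2.20.0 and the build GRCm38 (mm10). The deposited read counts are whole and not normalized. The deposited FPKM and TPM were scaled by the authors by gene length and library, with no allowance for the pancreas transcripts of CT 2. Counts were tested with edgeR 4.0.16 (R 4.3.3; TMM scaling, robust quasi-likelihood fit, filterByExpr with a minimum count of 10 and a minimum total of 15), all 9 libraries in 1 fit by group, with Benjamini-Hochberg adjustment over 18414 genes and a threshold of 0.05. CPM use the TMM-scaled library size. The slope fit added the distal colon score (prior count 2). Every per-sample column was matched, leaving 0 unused. The script was tested on simulated data. All 8 genes were named, and others by smallest p in fixed lists or because a result turned on them. Members and lists were chosen with earlier results of these data known. Alternatives were RLE and upper quartile scaling, no filter, DESeq2 1.42.0, limma 3.58.1 (voom, and log2 FPKM with pseudocounts 1 and 0.1), other sets of libraries, a replicate block and the distal score as covariate.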

Additional observations from a re-analysis of the deposited data

How the results depend on the processing

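None of the 8 genes gained or lost a call between groups under any alternative, and of 176 refitted values a comparison, 163 (IM-HYA against IM), 163 (IM-HYA against CT) and 154 (IM against CT) kept direction. On FPKM with pseudocounts 1 and 0.1 or unfiltered, not corrected for CT 2's pancreas share, the sign turned for IM-HYA against CT in Hmgcs1 (0.31, 0.32, 0.31), Mvd (0.20, 0.21, 0.20), Fdft1 (0.17, 0.17, 0.17) and Insig1 (0.39, 0.41, 0.39), and for IM against CT in Mvd (0.24, 0.25, 0.24), Fdps (0.040, 0.033, 0.040) and Insig1 (0.079, 0.085, 0.079). For Fdft1, IM against CT became -0.087 with voom, -0.080 with a replicate block, -0.50 with the distal score and -0.078 without both CT 2 and IM 3. With the distal score, IM-HYA against IM became 0.28 for Mvd, 0.0036 for Fdft1 and -0.12 for Srebf2. Without both CT 2 and IM 3, it became -0.13 for Hmgcs1, -0.15 for Srebf2 and -0.20 for Insig1, IM against CT became 0.27 for Fdps, and the Sqle slope -0.041. The causes were not tested.

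Leaving out 1 library at a time, IM against CT ran from -0.42 to 0.24 for Mvd, -0.70 to 0.24 for Fdps, -0.38 to 0.37 for Fdft1 and -0.74 to 0.10 for Insig1. IM-HYA against IM ran from -0.15 to 0.73 for Hmgcs1, -0.66 to 0.032 for Mvd, -0.16 to 0.25 for Srebf2 and -0.22 to 0.45 for Insig1, and IM-HYA against CT from -0.55 to 0.16 for Insig1. Slopes ran from -0.17 to 0.033 for Hmgcs1, -0.20 to 0.055 for Fdps, -0.040 to 0.17 for Sqle, -0.11 to 0.029 for Lss and -0.15 to 0.029 for Insig1. Of the 8 genes, 0 to 3 had a called slope, and 4 without both CT 2 and IM 3 (Mvd, Fdft1, Hmgcs1 and Fdps).

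Over all genes, calls numbered 65 with DESeq2, 2 at pseudocount 0.1, 0 on unfiltered FPKM and 0 without both libraries for IM against CT (1 to 2 leaving out 1 library). For IM-HYA against IM they were 45 with DESeq2, 1 on FPKM at either pseudocount and 1 without both libraries (0 to 871 leaving out 1, the highest without IM 1). For IM-HYA against CT they were 16 with DESeq2, 7 and 3 at pseudocounts 1 and 0.1 and 0 unfiltered (1 to 2 leaving out 1), and for any difference 2 without both libraries (1 to 2). Slope calls ran from 5 (without IM 1) to 3545 (without CT 2), with 1546 without IM 3, 1675 without IM-HYA 1 and 1621 without IM-HYA 3. Pairs of ratios without overlap ran from 5 to 17 for IM-HYA against IM, 16 to 18 for IM-HYA against CT and 4 to 9 for IM against CT, where fewer libraries overlap less by construction. Same-numbered libraries deviated together in some pairs and apart in others (correlations -0.27 to 0.36), and the labels do not say that a number pairs libraries. The replicate block gave 0, 1 and 1 calls for IM-HYA against IM, IM-HYA against CT and IM against CT, as did the fit without it. With 3 libraries a group, the SE of a log2 fold change of the 8 genes was 0.21 to 0.44.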

Other observations

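Sterol genes outside the synthesis chain, named here after their values were seen, set single libraries apart. Nr1h3, an oxysterol receptor, stood at 19.5, 11.3 and 16.9 CPM in IM-HYA libraries, at 19.1, 12.3 and 64.7 CPM in IM libraries and at 15.7, 24.9 and 13.5 CPM in CT libraries. Its known targets Abca1 and Abcg1, which export cholesterol, were also highest in IM 3, at 49.2 and 19.3 CPM, against at most 16.8 and 11.7 CPM in the other 8 libraries. IM 3 is the library with the most adipocyte, T cell and B cell marker RNA (B cell markers summed to 613 CPM, against 14.7 to 207 CPM elsewhere), and the part of those cells in these values was not tested. Tmem97, a sterol-regulated membrane protein, was highest in CT 2, the library with pancreas transcripts, at 303 CPM, against 37.6 to 137 CPM in the other 8.

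Stard4, which moves cholesterol between membranes, stood at 182, 175 and 158 CPM in IM-HYA libraries, at 134, 177 and 74.7 CPM in IM libraries and at 128, 73.9 and 176 CPM in CT libraries. The IM-HYA libraries were close together and the groups overlapped.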
